A study of Mus musculus with 8 samples.

Results

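The amino acid transporter families SLC1, SLC3, SLC7, SLC36 and SLC38, with 7 members of SLC6, were compared between the renal cortex of mice without SPAK and that of wild-type littermates. Members were chosen by gene symbol alone. Of 19938 genes with a probe set that names them alone, 46 met the rule, which leaves out Slc38a3 and Slc38a11 by name. Of the 46, 44 encode carriers or carrier subunits. The other 2, Slc6a19os and Slc7a6os, carry the symbol of a neighbouring carrier gene but do not encode one.

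RNA came from dissected renal cortex of male C57Bl6J mice aged 10 weeks, on feed with 0.32% NaCl and 1% KCl. The 4 mice labelled SPAK KO lacked SPAK, the kinase encoded by Stk39, and the 4 labelled WT were their wild-type littermates; where in Stk39 the disruption lies, and in which cells, is not given in the labels. Each mouse has 1 array of log2 expression values, on which a difference of 1 is a doubling. The study asked which genes act together to limit salt loss when SPAK is missing.

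Nearly all filtered amino acids are taken back by the proximal tubule. Carriers on the apical side, such as the neutral amino acid carrier of Slc6a19 and the cystine and dibasic amino acid exchanger of Slc3a1 and Slc7a9, bring them into the cell. Exchangers on the basolateral side, built from the heavy chain of Slc3a2 and light chains of the SLC7 family, pass them on to the blood. Other members serve all cells, feed lysosomal nutrient sensing, or are best known from nerve cells.

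Stk39 was lower on each SPAK KO array, at 6.79 to 7.21 against 8.11 to 8.60 in WT, a difference of −1.38 ± 0.11 (SE, 8 arrays; limma adjusted p = 5.8e-04). Some arrays agreed more closely than others of the same group. Among the 19 members with a mean above 8, the median size of the difference between 2 arrays ranged from 0.0189 to 0.0539 over the 6 SPAK KO pairs. WT 2 differed from WT 3 by 0.0484, and the remaining 5 WT pairs ranged from 0.0820 to 0.1232. The contrast was sharper over all 6297 genes with a mean above 8. After removal of the median difference, 1 to 10 of them differed by more than 0.4 within a SPAK KO pair. Between WT 2 and WT 3 it was 3 genes, and in the remaining WT pairs 119 to 228. If agreeing arrays come from 1 RNA sample, the p-values of the 8-array fit are too small. WT means ± SD therefore count WT 2 and WT 3 as 1 sample (n = 3), SPAK KO levels carry no SD, and both called members are also given with agreeing arrays counted once. Early proximal tubule markers such as Slc34a1 and Lrp2 were well measured, with means of 10.7 to 13.8 over 11 genes. Of the 3 medulla genes measured, the urea transporter gene Slc14a2 and Aqp4 had means of 5.42 and 5.38, and Slc5a3 one of 8.89.

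Slc7a12 and Slc3a1 were higher in SPAK KO, and none of the 46 members was called lower (limma, Benjamini-Hochberg adjusted p under 0.05 over all 19938 genes). That is 4.35% of the members, against 2.08% of all genes called in either direction. By direction, 1.39% of all genes were called higher and 0.682% lower, and a share that rests on 2 genes is imprecise. At an unadjusted p under 0.05, 8 members were lower, or 17.4%, against 10.1% of all genes, and 7 were higher, or 15.2%, against 9% of all genes. Of the 8 lower ones, only Slc36a1 and Slc6a15 had means above 6. The others were Slc1a6, Slc1a7, Slc7a10, Slc7a14, Slc36a3 and the non-carrier Slc6a19os. Of all genes with a mean under 6, 72.2% had a difference below 0. All 4 SPAK KO arrays lay above all 4 WT arrays for 6 members (13.0%, against 6.9% of all genes) and below them for 3 (6.52%, against 5.71%). The median difference of the 46 members was −0.03, beside −0.01 for all genes.

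**Figure D1:**
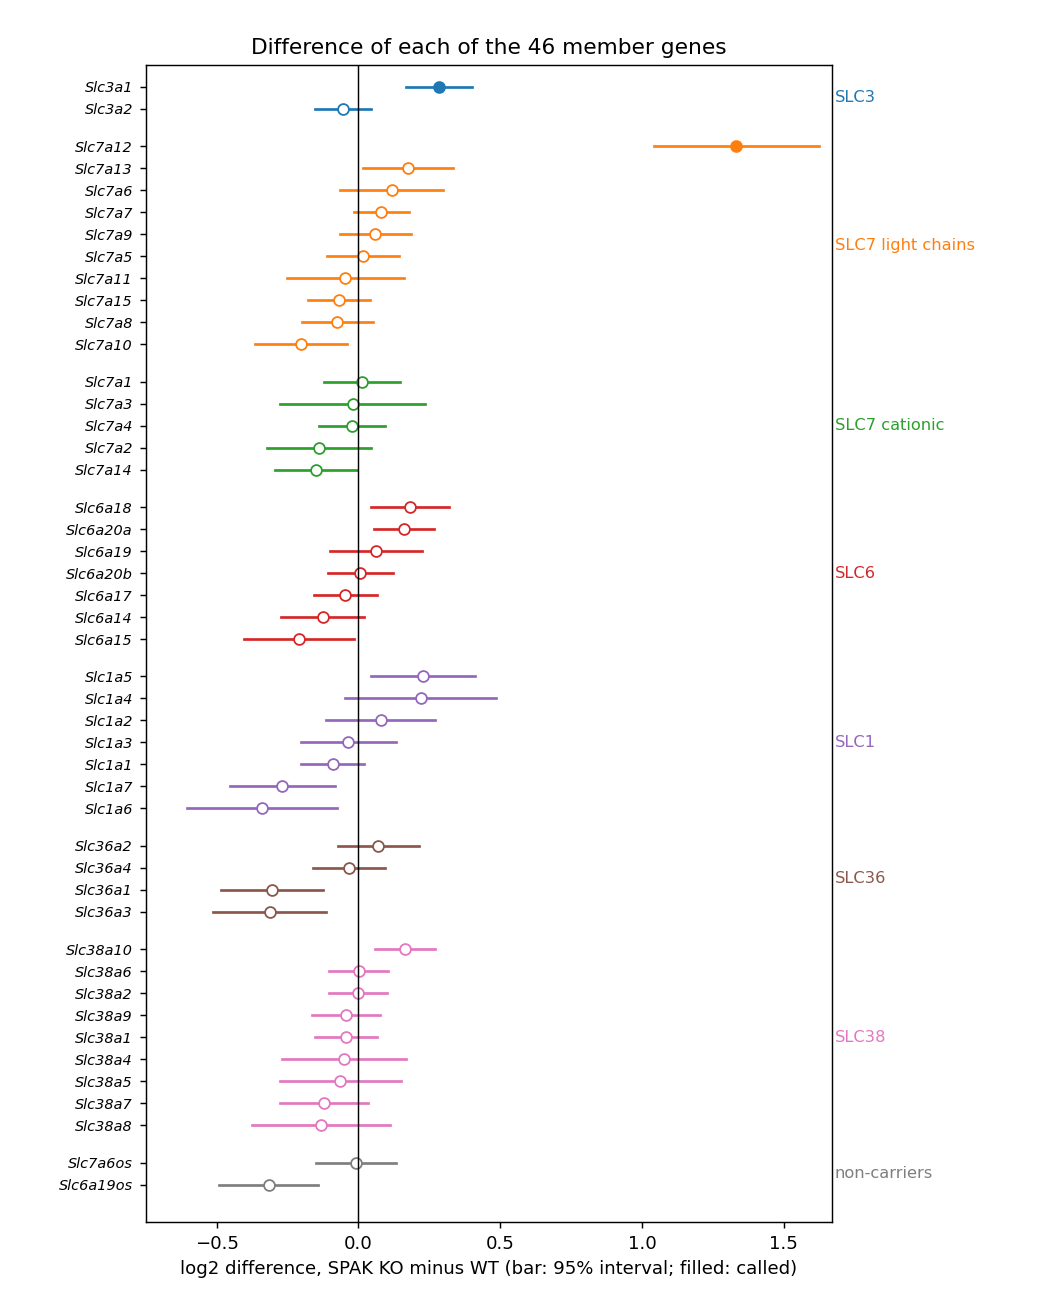
Log2 difference (SPAK KO minus WT, horizontal axis) of each of the 46 members, by family, with bars for the 95% interval of the limma fit over 8 arrays; filled points are called. Slc7a12 stands at 1.33 and Slc3a1 at 0.28, and the other 44 lie between −0.34 and 0.23.

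Slc7a12 encodes Asc-2, a carrier of small neutral amino acids that resembles the SLC7 light chains but is not known to pair with either SLC3 heavy chain. In WT mice 1 to 4 its log2 level was 6.51, 6.57, 6.89 and 7.16, and in SPAK KO mice 1 to 4 it was 8.12, 8.04, 8.03 and 8.27. The lowest SPAK KO array stood 0.87 above the highest WT array, more than the range of 0.66 among the WT arrays. WT 2 and WT 3, which agree on most genes, differed by 0.32 here. The difference was 1.33 ± 0.13 (SE; 2.52-fold, 95% interval 1.04 to 1.62, limma adjusted p = 0.0015). WT averaged 6.80 ± 0.33 (SD, n = 3).

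The call of Slc7a12 held whichever of the 8 arrays was omitted, with differences of 1.24 to 1.46. With only WT 2 and WT 3 merged it was 1.32 (adjusted p = 0.0045). With agreeing arrays counted once, which leaves 1 SPAK KO sample, it was again 1.32 and no longer called (adjusted p = 0.9998). In that fit limma called 0 of all genes, and 618 of them, 3 members included, had an unadjusted p under 0.05.

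Slc7a12 is known as a gene with more transcript in the kidney of female than of male mice. Among 11 kidney genes listed as higher in males, 4 were called lower and none higher: the ornithine decarboxylase gene Odc1 (−0.48 ± 0.06), the fatty acid hydroxylase gene Cyp4a12a (−0.64 ± 0.09), the organic anion transporter gene Slco1a1 (−0.62 ± 0.06) and Acsm3 (−0.42 ± 0.05), an acyl-CoA synthetase gene. The mean log2 value over the 11 was 12.01 to 12.07 on the WT arrays and 11.78 to 11.83 on the SPAK KO arrays. Of 6 measured genes listed as higher in females, Rdh16f2 was higher by 1.23 ± 0.14 and 5 did not pass. The mean over these 6 was 8.56 to 8.78 in WT and 8.88 to 8.96 in SPAK KO. Without the called genes, the 7 other male genes averaged 12.08 to 12.20 in WT and 12.05 to 12.10 in SPAK KO. Of their differences, 2 were above 0 and 5 below. The 5 other female genes averaged 8.52 to 8.81 and 8.71 to 8.81, with 3 differences above 0 and 2 below. In both, the groups then overlapped. Leaving out genes called in these same data tends to narrow a gap, so the overlap cannot decide whether a list shifted. Over all 11 male genes, 2 differences were above 0 and 9 below (median −0.14). Kap, an androgen-dependent gene of the male proximal tubule, was among the 2, at 0.02 ± 0.05 (adjusted p = 0.80). Of the uncalled male genes, Cyp2j13 and Cyp2e1 had the smallest p, at −0.14 ± 0.05 and −0.10 ± 0.05 (adjusted p = 0.22 and 0.25). For both, each SPAK KO array lay below each WT array, as for 5.71% of all genes. Picking genes by p favours groups that do not overlap. Xist read 3.75 to 4.03 over the 8 arrays and the Y-linked gene Uty 9.0 to 9.2, as in males. The part of androgen action in the Slc7a12 difference was not tested.

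Slc3a1 encodes rBAT, the heavy chain that brings the cystine and dibasic amino acid exchanger to the apical membrane, and is a gene of cystinuria. In the same order of mice it read 12.15, 11.95, 12.06 and 12.09 in WT and 12.33, 12.36, 12.36 and 12.35 in SPAK KO. The SPAK KO arrays spanned 0.02 and the WT arrays 0.20, and the groups did not overlap. The difference was 0.28 ± 0.05 (SE; 1.22-fold, 95% interval 0.17 to 0.40, limma adjusted p = 0.024), from 12.08 ± 0.07 in WT (SD, n = 3).

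Unlike that of Slc7a12, the call of Slc3a1 outlasted the omission of WT 1 or of WT 4, and of no other array. Without WT 2, WT 3 or SPAK KO 1, 2, 3 or 4 the adjusted p was 0.061, 0.062, 0.075, 0.073, 0.074 and 0.078. The difference itself stayed at 0.25 to 0.31 whichever array was omitted. Over all genes, 278 were called higher with 8 arrays and 106 to 137 without 1 SPAK KO array. With WT 2 and WT 3 merged the difference was 0.27 (adjusted p = 0.051), and with agreeing arrays counted once it was also 0.27 (adjusted p = 0.9998).

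Of the 2 called members, Slc3a1 has a promoter window in the RefSeq table of GRCm38.p6, and its sequence is shown as the stretch from which the called heavy chain gene is read. The window lies at chr17:85028097-85028366 on the plus strand, from 250 bases before the annotated start to 20 after it. Capitals mark matches on either strand to TATAAA, the core of a TATA box, and to GTTAAT, a half-site of HNF1, a family of factors of proximal tubule genes.

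Slc3a1: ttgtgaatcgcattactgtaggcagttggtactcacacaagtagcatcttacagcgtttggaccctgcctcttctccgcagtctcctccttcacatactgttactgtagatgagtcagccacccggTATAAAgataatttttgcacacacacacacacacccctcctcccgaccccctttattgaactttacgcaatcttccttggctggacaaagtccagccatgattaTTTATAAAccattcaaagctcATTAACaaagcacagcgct

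TATAAA begins 124, 20 and 18 bases before the start, the last 2 being overlapping matches on opposite strands, and the HNF1 half-site begins 1 base past it. Windows of 300 bases were searched for 35 of the 46 members, which have 46 annotated starts. TATAAA occurred in 5 of the 46 windows (10.9%) and in 13.6% of 32851 windows of all genes. GTTAAT occurred in 5 (10.9%, of Slc36a1, Slc3a1, Slc6a20a, Slc7a15 and Slc7a7) and in 7.1% of all. TGATGNAA, the core of the element through which ATF4 acts when amino acids are short, occurred in 4 (8.7%, of Slc1a4, Slc7a11 and Slc7a7) and in 3.97% of all. A match describes the letters and is not evidence of binding.

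The partners of the 2 heavy chains were not called. Slc7a9, the light chain b0,+AT that joins Slc3a1 in the cystine exchanger, read 10.44, 10.56, 10.44 and 10.34 in WT and 10.56, 10.49, 10.49 and 10.48 in SPAK KO. The groups overlapped, and the difference of 0.06 had a 95% interval of −0.06 to 0.18 (adjusted p = 0.59). Slc7a13, the acidic amino acid and cystine carrier AGT1 that also joins Slc3a1 in the straight segment, read 12.72, 12.50, 12.55 and 12.81 in WT and 12.75 to 12.85 in SPAK KO. Its difference was 0.18 ± 0.07 (adjusted p = 0.22). WT 4 lay inside the SPAK KO range.

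Slc3a2 encodes 4F2hc, the heavy chain of the basolateral exchangers. Its values were 12.65, 12.63, 12.57 and 12.57 in WT and 12.54, 12.55, 12.56 and 12.56 in SPAK KO. All SPAK KO arrays lay below all WT arrays, by little: the difference was −0.05, with a 95% interval of −0.15 to 0.05 (adjusted p = 0.55), and 0.0055 with arrays centred on their median over all probe sets. Slc7a7, its light chain y+LAT1 for dibasic amino acids, read 12.02, 12.01, 12.01 and 11.97 against 12.07, 12.11, 12.08 and 12.08. These groups did not overlap either, with a difference of 0.08 and an interval of −0.01 to 0.18 (adjusted p = 0.34). Slc7a8, the light chain LAT2 for neutral amino acids, read 11.53, 11.74, 11.71 and 11.72 against 11.58, 11.61, 11.57 and 11.64. WT 1 was below every SPAK KO array and the other 3 WT arrays above them, and the difference was −0.07 (interval −0.20 to 0.05, adjusted p = 0.51).

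**Figure D2:**
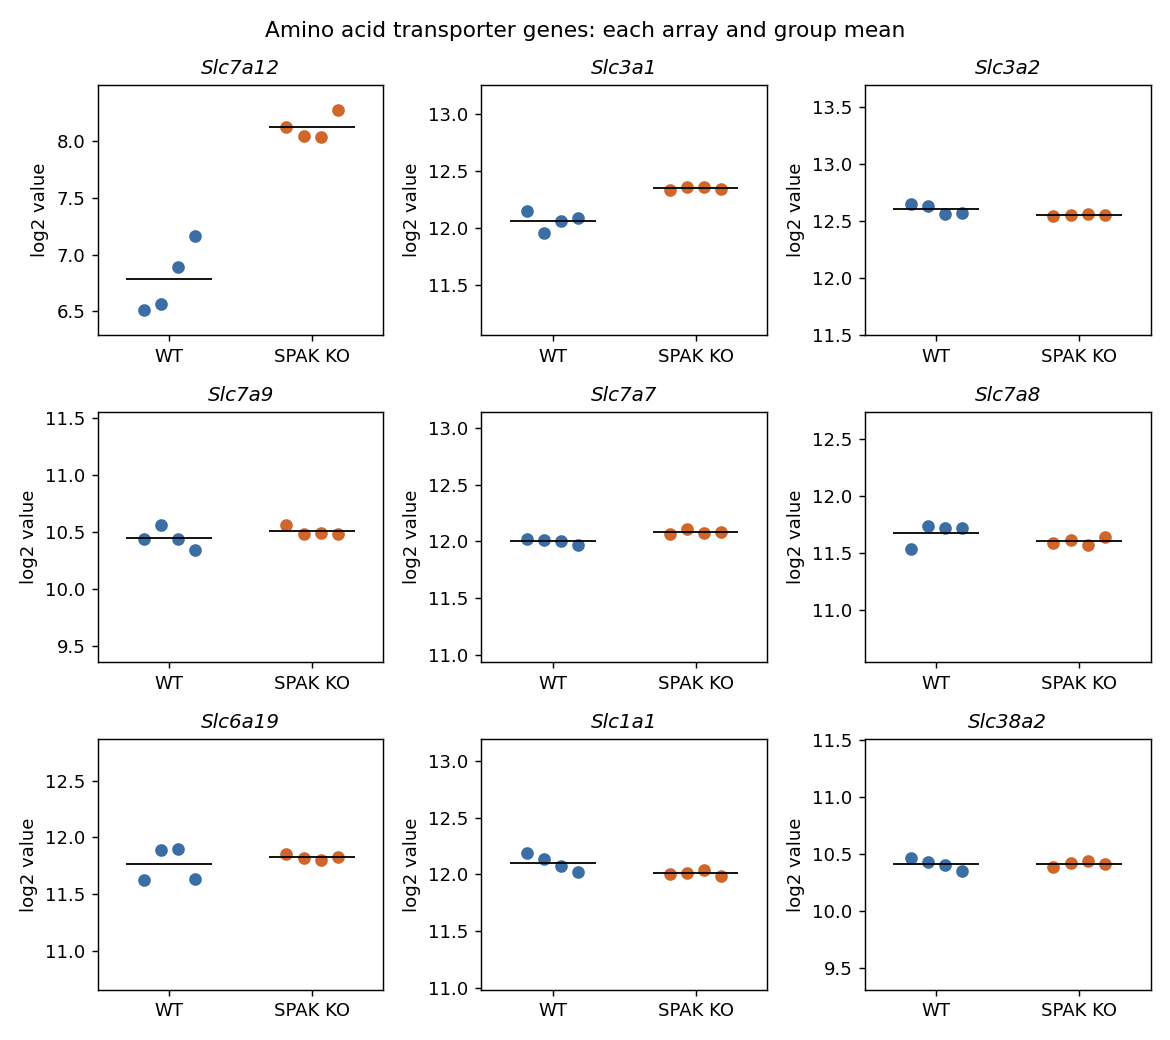
Log2 value on each array (points) and group mean (line) of 9 members, all panels spanning the same number of log2 units. The SPAK KO arrays of Slc7a12 lie at 8.03 to 8.27 and its WT arrays at 6.51 to 7.16; in the other panels the groups are at most 0.28 apart.

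The remaining light chains and their relatives were not called. Slc7a5 and Slc7a6, which encode LAT1 and y+LAT2, gave 0.02 ± 0.06 and 0.12 ± 0.08. Slc7a11, the cystine/glutamate exchanger xCT, Slc7a10, the Asc-1 exchanger of small neutral amino acids, and Slc7a15 had means of 4.10, 5.49 and 4.42. Such dim probe sets may hold little signal of their own, since no detection call comes with the values. Their differences were −0.05 ± 0.09, −0.20 ± 0.07 and −0.07 ± 0.05. Of the 10 light chains and relatives in all, 1 was called higher, none lower and 9 did not pass (median 0.04).

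None of the 5 cationic amino acid carrier genes passed, with a median of −0.02. Slc7a1 and Slc7a2, which encode the arginine and lysine carriers CAT-1 and CAT-2, gave 0.01 ± 0.06 and −0.14 ± 0.08. Slc7a3, Slc7a4 and Slc7a14 gave −0.02 ± 0.11, −0.02 ± 0.05 and −0.15 ± 0.07. Slc7a3 and Slc7a14 had means of 4.62 and 4.67.

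Of the 7 genes of the SLC6 family, 4 had differences above 0 and 3 below, and none passed. Slc6a19, the apical neutral amino acid carrier B0AT1 that is mutated in Hartnup disorder, read 11.63, 11.89, 11.90 and 11.63 in WT and 11.85, 11.82, 11.80 and 11.83 in SPAK KO. WT 1 and WT 4 lay below the SPAK KO arrays and WT 2 and WT 3 above them. The difference was 0.06, with a 95% interval of −0.10 to 0.22 (adjusted p = 0.67).

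Slc6a18, which encodes B0AT3, an apical carrier of glycine and other neutral amino acids, read 11.227, 10.996, 10.965 and 11.079 against 11.253, 11.239, 11.249 and 11.255. Slc6a20a, an imino acid carrier gene, read 9.02, 9.01, 9.04 and 9.11 against 9.22, 9.26, 9.19 and 9.16. For both, each SPAK KO array lay above each WT array. The differences were 0.18 ± 0.06 and 0.16 ± 0.05, with adjusted p of 0.15 and 0.11. Both were called with arrays centred on their median over all probe sets (0.24 with adjusted p = 0.046 and 0.22 with adjusted p = 0.044), and Slc6a18 also without WT 1 (0.24, adjusted p = 0.042). Its near relative Slc6a20b gave 0.0065 ± 0.05. Slc6a15 and Slc6a17, best known from brain, gave −0.21 ± 0.09 and −0.05 ± 0.05, and Slc6a14 −0.13 ± 0.07 at a mean of 4.08.

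None of the 7 SLC1 genes passed. Slc1a1, the apical glutamate and aspartate carrier EAAC1 of the proximal tubule, read 12.19, 12.13, 12.08 and 12.02 in WT and 12.01, 12.01, 12.04 and 11.99 in SPAK KO. Only WT 4 lay within the SPAK KO range, and the difference was −0.09, with a 95% interval of −0.20 to 0.02 (adjusted p = 0.35). Slc1a5, the glutamine exchanger ASCT2, read 8.21, 8.14, 8.31 and 8.53 against 8.55, 8.48, 8.61 and 8.46. Its difference of 0.23 ± 0.08 did not pass (adjusted p = 0.17) except without WT 4, the one WT array within the SPAK KO range (0.31, adjusted p = 0.037).

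Slc1a4, which encodes the neutral amino acid exchanger ASCT1, varied most among the brighter SLC1 genes in WT. It read 8.55, 8.01, 8.22 and 8.61 there and 8.47 to 8.64 in SPAK KO, a difference of 0.22 ± 0.12 (adjusted p = 0.35). The glutamate carrier genes of brain and retina, Slc1a2, Slc1a3, Slc1a6 and Slc1a7, gave 0.08 ± 0.09, −0.04 ± 0.08, −0.34 ± 0.12 and −0.27 ± 0.08. The last 3 had means of 5.61, 5.23 and 5.80.

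Of the 4 SLC36 genes, which encode proton-coupled carriers of small amino acids, none passed. Slc36a1, the lysosomal and cell surface carrier PAT1, read 11.02, 10.65, 10.64 and 10.72 in WT and 10.48, 10.49, 10.42 and 10.41 in SPAK KO. Each SPAK KO array lay below each WT array, and WT 1 was the highest by 0.29. The difference was −0.30 ± 0.08 (95% interval −0.49 to −0.12, adjusted p = 0.090). It was called with the trend and robust options of limma (adjusted p = 0.028), and without WT 1 it was −0.22 (adjusted p = 0.059). Slc36a3 gave −0.31 ± 0.09 at a mean of 5.38. Slc36a2, the kidney glycine and proline carrier PAT2, and Slc36a4 gave 0.07 ± 0.06 and −0.03 ± 0.06, the former at a mean of 5.18.

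The 9 SLC38 genes likewise held no call, with a median of −0.04. Slc38a2, the SNAT2 carrier that cells raise when amino acids are short, read 10.46, 10.43, 10.41 and 10.35 in WT and 10.38, 10.42, 10.44 and 10.41 in SPAK KO. The groups overlapped, and the 95% interval of the difference ran from −0.10 to 0.10. Slc38a10 read 8.77, 8.76, 8.85 and 8.83 against 9.02, 8.94, 8.98 and 8.94, without overlap, a difference of 0.17 ± 0.05 (adjusted p = 0.11). It was called with dim genes of a mean under 6 left out (adjusted p = 0.049) and with arrays centred over all probe sets (0.22, adjusted p = 0.046). Slc38a7 and Slc38a9, of the lysosomal membrane, gave −0.12 ± 0.07 and −0.04 ± 0.05. Slc38a1, Slc38a4, Slc38a5, Slc38a6 and Slc38a8 lay between −0.13 and 0.0016. Slc38a3, the glutamine carrier SN1 and left out by the rule, read 8.65, 7.93, 8.06 and 8.06 in WT and 9.13 to 9.17 in SPAK KO, and was called higher by 0.97 ± 0.13 (adjusted p = 0.0059).

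The 2 non-carrier members were Slc7a6os, at −0.01 ± 0.06, and Slc6a19os, a transcript named as opposite strand to Slc6a19, at −0.32 ± 0.08 (adjusted p = 0.075). Slc6a19os read 5.64, 5.28, 5.43 and 5.33 in WT and 5.01 to 5.16 in SPAK KO, without overlap.

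Differences below 0 gathered among dim members. Of the 15 members with a mean under 6, 14 had a difference below 0 (93.3%, median −0.13), as had 72.2% of the 7937 genes of all kinds with such a mean (median −0.06). Of the 16 members with a mean of 6 to 9, 7 were below 0, and of the 15 brighter ones, 7. The median of all 35556 probe sets was 6.13 to 6.19 on the WT arrays and 6.09 to 6.12 on the SPAK KO arrays. With arrays centred on it, which adds 0.06 to each difference, 10 of the 15 dim members were below 0, beside 51.0% of dim genes of all kinds. The same centring raised the calls among members to 5 higher and 0 lower, the 3 further ones being Slc6a18, Slc6a20a and Slc38a10. Over all genes it turned the share of calls that were higher from 67.1% to 88.4%. The part of this array level in the differences of dim members was not tested.

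**Figure D3:**
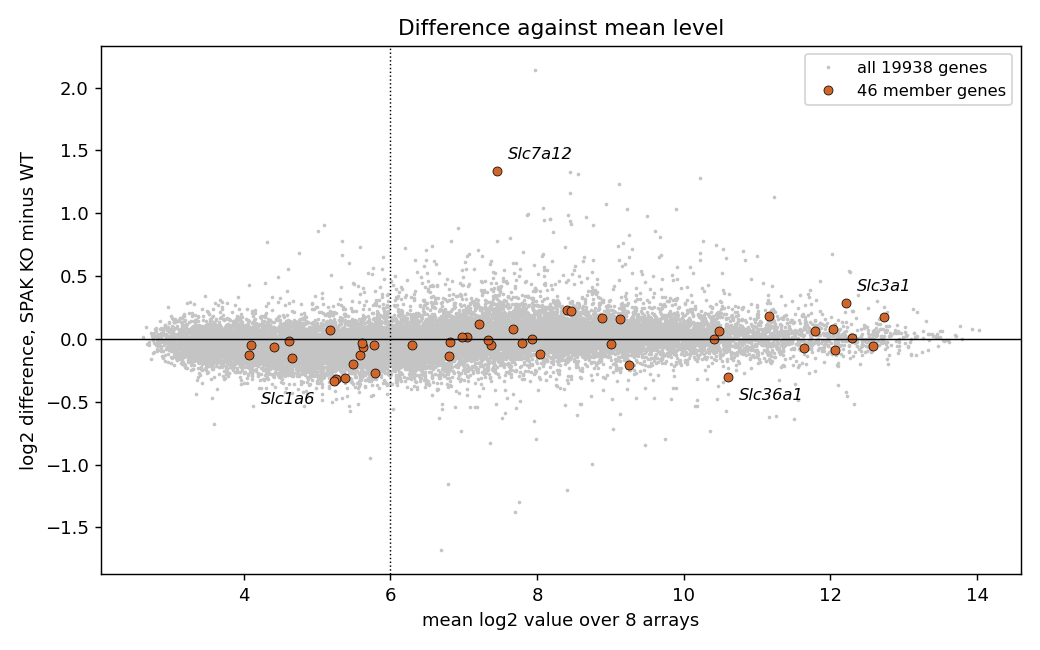
Log2 difference (SPAK KO minus WT, vertical axis) against mean log2 value over 8 arrays (horizontal axis) for all 19938 genes (grey) and the 46 members (orange); the dotted line marks a mean of 6. To its left, 14 of 15 members lie below 0; Slc7a12 lies at 1.33 at a mean of 7.45.

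The fixed lists of other genes of amino acid handling held no call; Slc38a3, which is in none of them, was higher, as given above. Of 17 other amino acid and peptide carrier genes none passed (median −0.03). The nearest were Slc16a10, which encodes the basolateral aromatic amino acid carrier TAT1, at −0.23 ± 0.05 (adjusted p = 0.065), and the kidney peptide carrier gene Slc15a2, at 0.34 ± 0.08 (adjusted p = 0.070). Cltrn, whose product collectrin brings SLC6 carriers to the apical membrane, read 12.84, 12.78, 12.85 and 12.92 in WT and 12.92 to 13.00 in SPAK KO. Its difference of 0.11 ± 0.05 did not pass (adjusted p = 0.24), nor did those of the 3 other partner genes measured.

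Of 18 genes of the response to amino acid shortage, which ATF4 drives, none passed (median 0.03). Atf4 and its target Asns, the asparagine synthetase gene, gave 0.05 ± 0.05 and 0.01 ± 0.12. Cth, for cysteine synthesis, and the leucine sensor gene Sesn2 had the smallest p, at 0.17 ± 0.05 and 0.48 ± 0.13 (adjusted p = 0.088 and 0.094). For these 2 genes, picked by p, each SPAK KO array lay above each WT array, as for 6.9% of all genes. Sesn2 read 7.97 on WT 4, well below the 8.57 to 8.60 of the other WT arrays, against 8.84 to 9.01 in SPAK KO.

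**Figure D4:**
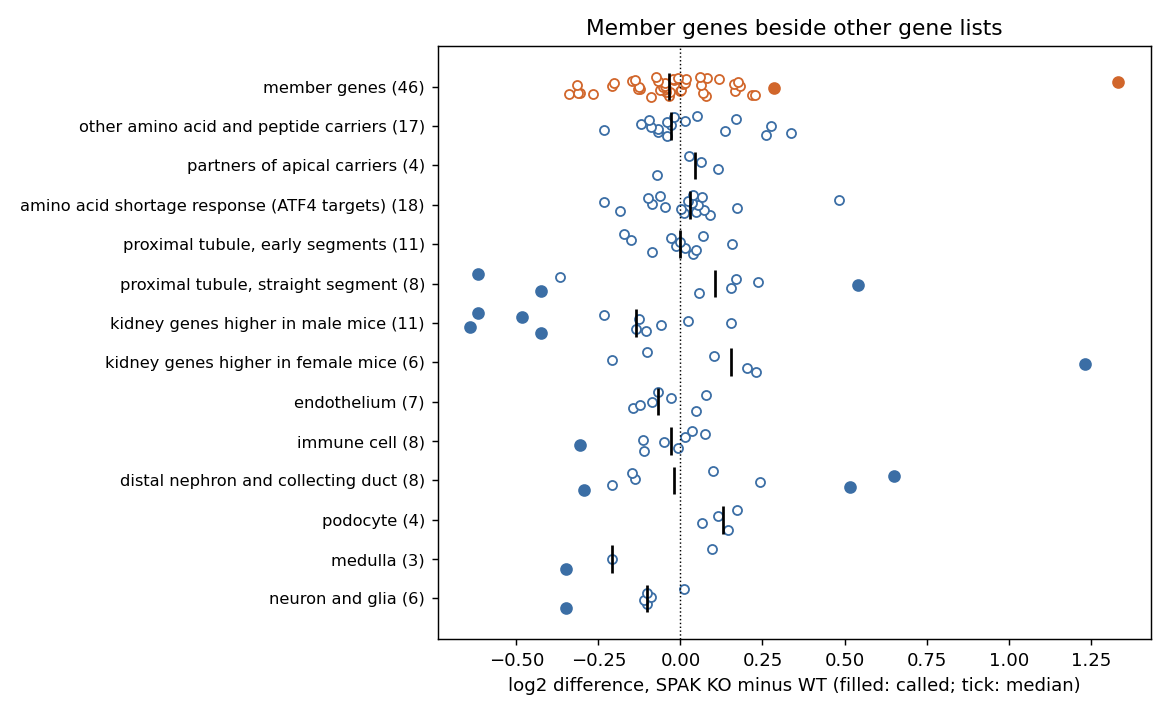
Log2 difference (SPAK KO minus WT) of the members and of the genes of 13 lists, with the number measured in brackets; filled points are called and the tick is the median. The members hold 2 calls, both higher, and the list of genes higher in male mice holds 4, all lower.

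In bulk tissue, fewer cells of a type and less RNA per cell cannot be told apart. Markers of the early proximal tubule had a median difference of −0.0013 with none of 11 called, and their mean log2 value was 12.50 to 12.54 in WT and 12.50 to 12.51 in SPAK KO. Markers of the straight segment were divided. Of 8 genes, Napsa was higher by 0.54 ± 0.10, Slco1a1 and Acsm3 were lower, and the mean level was 11.06 to 11.17 against 11.06 to 11.08. Slco1a1 and Acsm3 are also in the list of genes higher in males, so their calls are the same ones as above.

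Among other cells, none of 7 endothelial and none of 4 podocyte genes was called, with medians of −0.07 and 0.13. Of 8 immune genes 1 was lower, Cd3e at −0.31 ± 0.06. Of 8 distal nephron and collecting duct genes Slc26a4 and Atp6v1g3 were higher by 0.65 ± 0.08 and 0.52 ± 0.07, and Aqp2 was lower at −0.29 ± 0.06. Aqp4 was lower at −0.35 ± 0.07, the 1 call in both the medulla list (3 genes measured) and the neuron and glia list (6 genes). The defining markers of nerve cells, Rbfox3 and Snap25, were dim, with means of 5.64 and 5.07. The calls of Aqp4, Cd3e, Aqp2 and Napsa were less steady than the others of these lists: they held in 3 of 17, 5 of 19, 8 of 19 and 11 of 19 alternatives, and each was lost on leaving out any 1 SPAK KO array.

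Mean levels of 4 of these lists did not overlap between the groups. Those of the podocyte list were 7.80 to 7.87 in WT and at least 7.90 in SPAK KO. All 4 podocyte differences were above 0, and with no called gene in it this list stays apart when called genes are left out. Mean levels of the distal list were 10.60 to 10.75 in WT and 10.79 to 10.81 in SPAK KO. The distal genes did not rise as a class, with 4 differences above 0, 4 below and a median of −0.02. The other two were lower in SPAK KO, the medulla list at 6.58 to 6.76 against 6.44 to 6.56 and the neuron and glia list at 5.29 to 5.39 against 5.14 to 5.26. Without their called genes the distal list (5 genes, 11.30 to 11.50 against 11.38 to 11.41), the medulla list (2 genes, 7.13 to 7.27 against 7.06 to 7.18) and the neuron and glia list (5 genes, 5.25 to 5.36 against 5.12 to 5.30) overlapped. Here too, leaving out called genes tends to narrow a gap, so the overlap cannot decide whether a list shifted. The part of these cells in the differences of the carriers was not tested.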

How the data were processed

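The authors deposited 1 log2 expression level per probe set and array. The submitters' processing notes name RMA and the Affymetrix software Expression Console; RMA corrects background, normalizes between arrays and summarises probes. The version, build and filters are not given in the sources used here. Total RNA (6 µg per mouse) was labelled with biotin, per the labels' protocols. Of 35556 probe sets, 21789 had 1 symbol in the platform annotation, 1621 several and 12146 none. For each of 19938 genes the single-symbol probe set with the highest mean over the 8 arrays was used.

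Genotype was fitted in limma 3.58.1 (R 4.3.3; lmFit, eBayes) over all genes and 8 arrays, with Benjamini-Hochberg adjustment over all genes and a threshold of 0.05; each difference subtracts WT from SPAK KO and has a moderated SE. The script was tested on simulated data. The number of arrays limits precision. The labels name 8 mice; p-values measure the spread between these arrays only.

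The members, lists and tests were chosen with earlier results of these data known. By rule, values on every array are given for called members, 8 fixed carriers and members with an outlying WT array; other members may be named, and those without overlap or called under an alternative were given array by array after their values were seen, as were Cltrn, Xist, Uty and Slc38a3. From each list, called genes and up to 2 others were named; Kap, Cltrn, Atf4 and Asns, and markers cited for tissue identity, were named besides. Alternatives were a replicate block, 2 centrings, 2 further normalizations, 2 filters on dim genes, the mean of all probe sets, trend and robust options, leaving out each array and merging agreeing arrays. List levels without called genes were added after seeing the data. Promoter sequences are from RefSeq (GRCm38.p6).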

Additional observations from a re-analysis of the deposited data

Results flagged for a closer look

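In groups of 4 arrays, 1 array was set apart when its gap to the nearest other, as a share of the group's range, exceeded Dixon's critical value. This was so in 9 of 116 groups of 4 arrays, where chance gives about 1 in 20, and 6 of the 9 were SPAK KO groups. The ranges of these SPAK KO groups ran from 0.06 (Slc6a20b) to 0.44 (Slc38a5). Among members, SPAK KO 1 stood apart for Slc6a20b (12.25, the others 12.31), for Slc7a13 (12.75, the others 12.84 to 12.85) and for Slc7a9 (10.56, the others 10.48 to 10.49). SPAK KO 2 was high for Slc38a7 (8.13, the others 7.91 to 7.94), SPAK KO 3 low for Slc38a4 (6.17, the others 6.30 to 6.33) and SPAK KO 4 low for Slc38a5 (5.30, the others 5.66 to 5.74). WT 1 was low for Slc7a8 (11.53, the others 11.71 to 11.74). None of these 7 members was called. Among genes beside the members, WT 1 was low for Rdh16f2 (7.98, the others 8.61 to 8.73) and WT 4 high for Aqp4 (5.75, the others 5.485 to 5.499).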

How the results depend on the processing

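Slc7a12 kept its call in 18 of 19 alternatives and Slc3a1 in 10, and neither changed sign. Leaving out 1 array gave 1.24 to 1.46 for Slc7a12, 0.25 to 0.31 for Slc3a1 and −1.47 to −1.30 for Stk39. With agreeing arrays counted once the 3 values were 1.32, 0.27 and −1.32, none called, since 1 SPAK KO sample was left and assumed to vary like WT. Slc3a1 was also lost with only WT 2 and WT 3 counted once (0.27, adjusted p = 0.051). With the replicate number as a block it gave 0.28 (adjusted p = 0.084). Same-numbered arrays of the 2 groups correlated at −0.13 to 0.13 in their deviations from group means, and 2 of 4 WT arrays correlated best with their own number, so the numbers were not taken to pair the mice.

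Members called higher numbered 1 with the replicate block, 5 with arrays centred on their median over all probe sets (an alternative chosen after seeing the data), 1 with WT 2 and WT 3 counted once, 0 with agreeing arrays counted once, and 1 to 3 without 1 array. Members called lower numbered 1 with trend and robust options. Over all genes, 129 higher and 45 lower were called with the replicate block, 673 and 88 with that centring, 526 and 241 with trend and robust options, 175 and 78 with WT 2 and WT 3 counted once, 0 and 0 with agreeing arrays counted once, and 106 to 407 and 50 to 218 without 1 array. Leaving out means under 6 gave 462 higher. Among genes of the lists, 4 were higher and 7 lower. Higher ones numbered 10 with that centring, 8 with either filter on dim genes, 9 with trend and robust options and 0 with agreeing arrays counted once; lower ones 4 with the replicate block, that centring or WT 2 and WT 3 counted once, 0 with agreeing arrays counted once, and 4 to 8 without 1 array. Of the 44 uncalled members, 5 were called in at least 1 alternative and 17 changed sign in at least 1, always uncalled. The cause of these changes was not tested.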
